A study of Mus musculus with 8 samples.

Results

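Keratins form the intermediate filaments of epithelial cells, built from pairs of 1 type I and 1 type II chain. The genes described here are the keratins of mouse skin outside the epidermal set: those of the hair follicle, those of simple epithelia and those of other stratified epithelia. They were chosen by name, as every gene of the table with a keratin symbol except Krt1, Krt2, Krt5, Krt6a, Krt6b, Krt10, Krt14, Krt15, Krt16 and Krt17. That rule gave 42 genes of the 52 keratin genes among 24421 genes, and it used no measured value. Inner root sheath keratins stiffen the sheath that moulds the growing hair, and companion layer and upper follicle keratins line the space between the sheaths and the mouth of the follicle. Hair shaft keratins are cross-linked into the hard fibre itself. Simple keratins, with Krt8 and Krt18 as the founding pair, belong to glands, ducts and Merkel cells, the touch cells of the epidermis. Melanocytes, the pigment cells of the follicle and epidermis, descend from the neural crest and build their filaments mainly from vimentin.

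RNA came from the back skin of 4 C57BL/6J mice that all carried the ROSA mTmG reporter and the Tyr:CreERT2 transgene. In this reporter a cell shows membrane tdTomato until Cre acts and membrane EGFP afterwards, and the Tyr sequence directs the tamoxifen-dependent Cre to the melanocyte lineage. Every mouse received tamoxifen for 10 days from postnatal day 21 and was depilated on day 50. Mice 1 and 2 were mock treated under normal light, and mice 3 and 4 received 150 mJ/cm2 UVB for 3 days. On day 54 the skin was dissociated and each mouse gave a sort of EGFP+ cells, labelled melanocytes, and one of tdTomato+ cells, labelled other skin cells, for 8 libraries in 4 groups of 2. Cells that escaped recombination stay tdTomato+, so the tdTomato+ sort can hold melanocytes. Libraries held 11186363 to 16711981 reads and 11186 to 17076 detected genes, the fewest in EGFP+ cells of mouse 4. Mouse 1 had 477 and 1103 Xist reads against at most 4 in the other libraries, and at most 9 reads from Y-linked genes against at least 2253. It thus differed in sex from the other mice, and sex and mouse cannot be told apart.

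All 41 members placed by the GENCODE M21 annotation of mm10 (GRCm38) lie in 2 clusters, 22 on chromosome 11, which holds the type I genes and includes Krt222, and 19 on chromosome 15, which holds the type II genes and Krt18. The promoters of some follicle members, from RefSeq (GRCm38.p6), are shown as chosen examples. All were called lower in EGFP+ cells, and 4 of the 6 (Krt25, Krt28, Krt71 and Krt32) hold a sequence feature near their start. Krt27 and Krt79 stand beside them without it in that position. The 120 bases before the start are printed 5′ to 3′ on the gene's own strand, the minus strand in all 6 cases, with TATAAA in capitals where its first base lies 40 to 20 bases before the start. They span chr11:99322952-99323071 (Krt25), chr11:99351119-99351238 (Krt27), chr11:99374904-99375023 (Krt28), chr15:101743098-101743217 (Krt71), chr11:100088270-100088389 (Krt32) and chr15:101940325-101940444 (Krt79).
Krt25: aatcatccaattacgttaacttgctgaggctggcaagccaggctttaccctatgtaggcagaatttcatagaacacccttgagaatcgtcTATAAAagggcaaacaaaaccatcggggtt
Krt27: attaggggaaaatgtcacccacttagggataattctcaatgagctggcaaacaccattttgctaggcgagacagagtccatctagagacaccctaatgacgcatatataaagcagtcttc
Krt28: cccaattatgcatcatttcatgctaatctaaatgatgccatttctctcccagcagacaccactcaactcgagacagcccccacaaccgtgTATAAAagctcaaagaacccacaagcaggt
Krt71: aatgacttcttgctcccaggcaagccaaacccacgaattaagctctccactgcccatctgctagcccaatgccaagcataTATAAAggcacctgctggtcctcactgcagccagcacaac
Krt32: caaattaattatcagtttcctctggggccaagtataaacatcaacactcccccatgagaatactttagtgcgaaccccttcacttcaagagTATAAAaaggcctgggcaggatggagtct
Krt79: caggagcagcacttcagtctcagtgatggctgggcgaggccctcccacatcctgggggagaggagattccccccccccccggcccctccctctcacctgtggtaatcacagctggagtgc
TATAAA on the sense strand in that position was present in 12 of 32 member windows (37.5%), which cover 31 members, against 655 of 32851 windows of all genes (1.99%). The 12 were those of Krt25, Krt26, Krt28, Krt71, Krt73, Krt31, Krt32, Krt34, Krt40, Krt12, Krt20 and Krt76. Of these, Krt26, Krt31, Krt12, Krt20 and Krt76 were not called lower in EGFP+ cells over all mice, and Krt34 and Krt40 were not tested. Besides Krt27 and Krt79, the called members Krt23, Krt24, Krt18, Krt42, Krt7 and Krt75 lack it in that position. A link between TATAAA and the call was not tested. In Krt27 the letters TATAAA lie closer to the RefSeq start, and GENCODE places that start further downstream. GENCODE also places the start of Krt32 further downstream, so the position of its TATAAA holds for the RefSeq start only. Krt79 has no TATAAA in its 300-base window. Over the whole 300 bases and both strands, TATAAA was in 56.2% of member windows and 13.6% of all windows. The GATA-factor letters AGATAA were found in 25% of member windows and 11.2% of all windows. For TCF/LEF factors, the letters searched were CTTTGNN with each N limited to A or T, and the shares were 25% and 16.9%. The AP-2 letters GCCNNNGGC were found in 18.8% and 16.6%, and the AP-1 letters TGANTCA in 6.25% and 7.81%. These are letter matches in windows of neighbouring, related genes, not mapped binding sites.

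EGFP+ cells held fewer reads of these keratins than tdTomato+ cells did, and Krt79 had the highest level in tdTomato+ cells. Values are the authors' normalized reads, which are reads divided by 1 size factor per library. The mean exceeded 10 in tdTomato+ cells for 19 of the 42 members and in EGFP+ cells for 2, Krt79 and Krt80. It exceeded 100 in tdTomato+ cells for 7. Of the 42, 12 had 0 reads in all 4 EGFP+ libraries, 3 of which (Krt33b, Krt34 and Krt39) had 0 reads in every library, and 30 had 3 reads or fewer over the EGFP+ libraries. In EGFP+ cells of mouse 4 only Krt79 and Krt80 had any reads and 40 members were at 0. Summed over the members, EGFP+ cells gave 106, 104, 77.2 and 110 in mice 1 to 4, and tdTomato+ cells 20739, 20291, 10301 and 6867. That sum was 2.499% to 7.09% of all keratin reads in tdTomato+ cells and 9.84% to 11.99% in EGFP+ cells, so the members' share of keratin reads was higher in every EGFP+ library. Single genes weighed on the EGFP+ sums, with Krt80 at 105 of the 110 in mouse 4. Krt79 made up 19.7%, 38.5% and 62.0% of the EGFP+ sum in mice 1 to 3. In bulk samples, fewer cells of a type and less RNA per cell cannot be told apart.

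**Figure D1:**
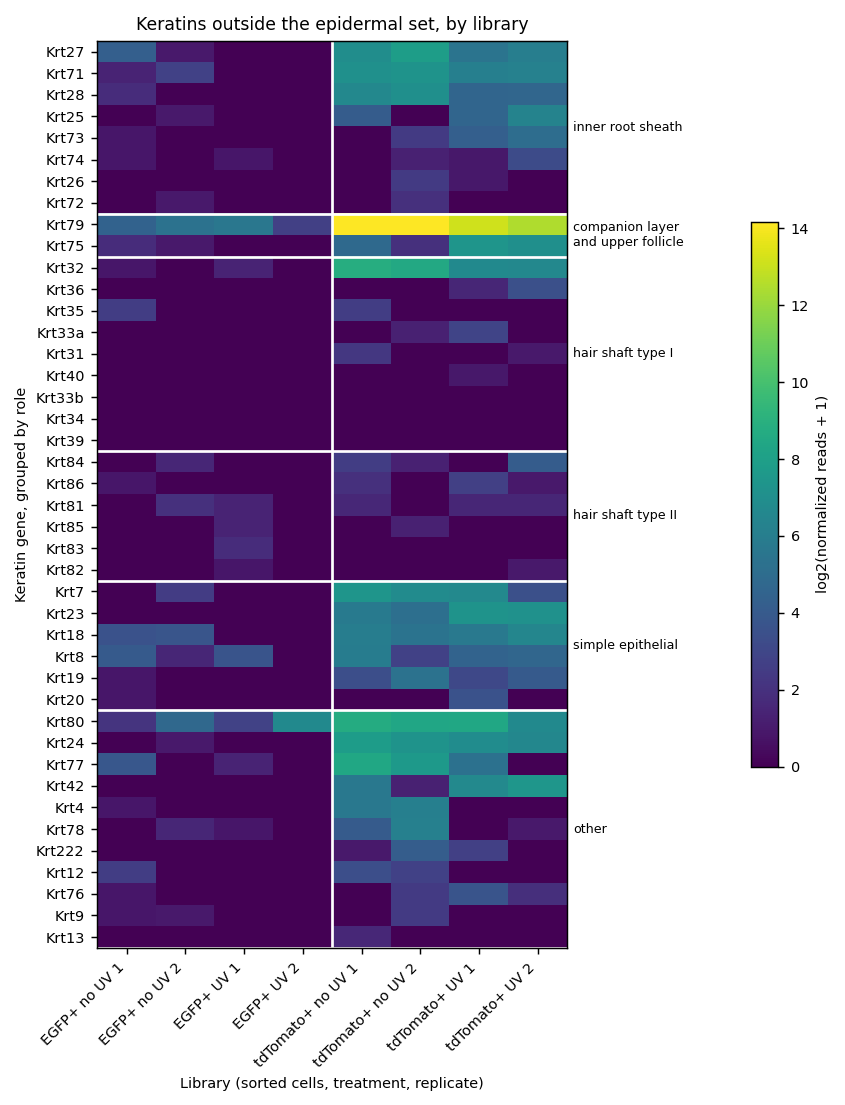
Heat map of the 42 keratins (rows, grouped by role with white lines between roles) in the 8 libraries (columns), coloured by log2 of the normalized reads plus 1. The EGFP+ columns are dark nearly throughout; in the tdTomato+ columns Krt79 stands above the rest and most hair shaft rows are near 0.

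Of the 42 members, 35 reached the minimum mean of 1 in at least 1 group and were tested. EGFP+ cells had less RNA than tdTomato+ cells for 16 of the 35 and more for none (limma, adjusted p under 0.05 over 18070 genes). Over all genes tested, 19.2% were called lower and 9.66% higher, 3471 and 1746 genes. Quantile normalization gave 2671 lower and 2618 higher over all genes, and 15 members lower. At an unadjusted p under 0.05, 19 members were lower and 0 higher. edgeR on the recovered reads called 15 lower and DESeq2 14, each with 0 higher. In the authors' deposited table, 26 members had an adjusted p, of which 18 were under 0.05 and lower in EGFP+ cells and 0 higher. The median log2 difference, EGFP+ minus tdTomato+, was -2.19 over the 35 members (-2.72 with members at 0 reads set at their bound) and -0.33 over all genes tested. A member that passed the minimum only through tdTomato+ cells had to be lower in EGFP+ cells, so these counts describe the 35 and not the 42. Without UVB 12 were lower (background 12.5% lower, 6.67% higher) and with UVB 13 (background 12.9% lower, 5.03% higher), with 0 higher in both by limma, edgeR and DESeq2 and 0 higher at an unadjusted p under 0.05. Over all genes, quantile normalization moved the split from 2262 lower and 1206 higher to 1785 and 1809 without UVB, and from 2331 and 909 to 1639 and 1251 with UVB. Mouse as a block gave 17, 11 and 12 lower for all mice, without UVB and with UVB.

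Between roles, the members called lower over all mice were 5 of 8 inner root sheath keratins, both companion layer and upper follicle keratins, 1 of 9 type I hair shaft keratins (5 tested), 0 of 6 type II hair shaft keratins (4 tested), 4 of 6 simple keratins and 4 of 11 others (10 tested). Among these 16, already selected by their adjusted p, the EGFP+ and tdTomato+ libraries overlapped for Krt4, Krt73 and Krt25. The call held in all 8 fits that left out 1 library for 12 of the 16. Krt42 lost it without EGFP+ cells of mouse 1 (adjusted p = 0.0502). Krt25 lost it without either EGFP+ library of mice 1 and 2, EGFP+ cells of mouse 4 or either UVB tdTomato+ library (0.0748 to 0.140), and Krt73 without the same 5 libraries (0.0537 to 0.0939). Krt80 lost it without any 1 of the 4 tdTomato+ libraries or EGFP+ cells of mouse 1 (0.0755 to 0.131).

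**Figure D2:**
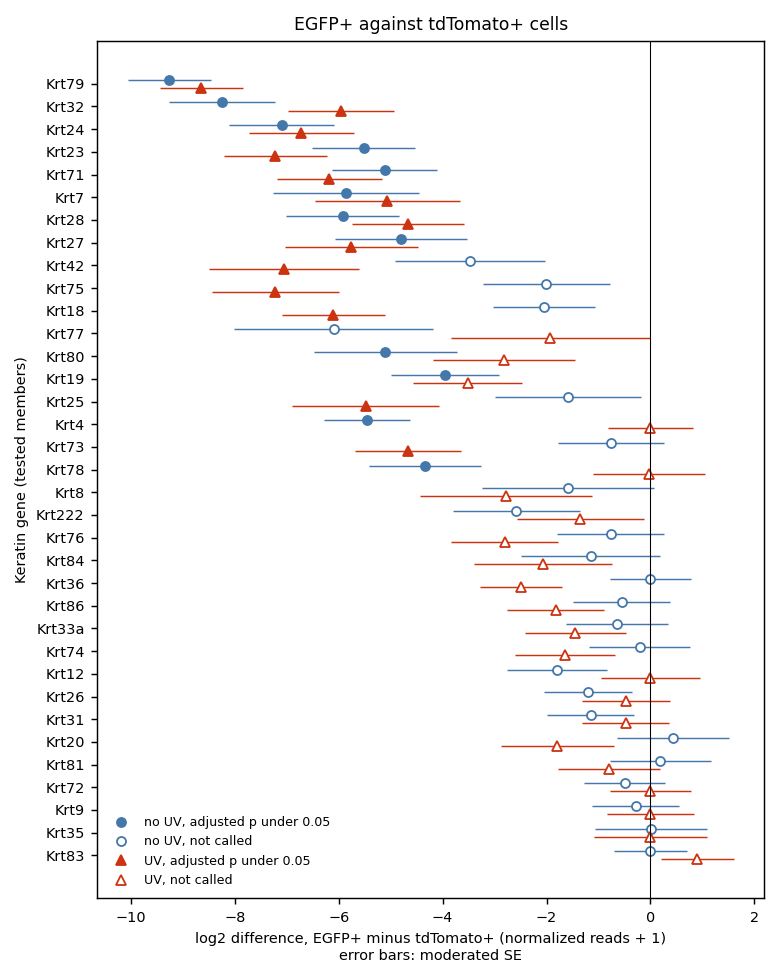
Log2 difference, EGFP+ minus tdTomato+ cells, of the 35 tested keratins (rows, ordered by the difference over all mice), without UVB (circles) and with UVB (triangles); bars are the moderated standard error and filled symbols have an adjusted p under 0.05. Every filled symbol lies left of 0, from Krt79 at -9.26 without UVB to Krt19 at -3.96 without UVB.

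Krt79 marks the funnel of the follicle and the duct that opens into it. It had 18395 and 18275 normalized reads in tdTomato+ cells of mice 1 and 2 and 8878 and 5659 in those of mice 3 and 4. In EGFP+ cells it had 20.8, 39.9, 47.8 and 5.39. The cell populations were far apart in every mouse, and the 2 UVB mice had the lower tdTomato+ values. Krt79 lies at chr15:101929332-101940324. Its log2 difference was -8.96 ± 0.57 (SE, adjusted p = 1.57e-05) over all mice, -9.26 ± 0.80 without UVB and -8.65 ± 0.80 with UVB. It alone made up 82.4% to 90.1% of the members' summed value in tdTomato+ cells, with no correction for length. Per kilobase of its longest coding transcript, Krt79 reached 6105 ± 3111 (SD, n = 4) in tdTomato+ cells. Krt32 followed at 154 ± 109, Krt24 at 81.0 ± 32.5, Krt80 at 76.7 ± 34.7 and Krt27 at 75.6 ± 56.3. From Krt32 downwards, neighbours in that order lay within the larger SD of each pair. The gap from Krt32 to Krt24 exceeded the SD of Krt24, and the gap from Krt18 to Krt75 exceeded the SD of Krt18. These SDs span mice with and without UVB.

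Krt75, the keratin of the companion layer between the inner and outer root sheaths, had 27.4, 2.85, 164 and 134 normalized reads in tdTomato+ cells of mice 1 to 4. EGFP+ cells had 2.495, 0.95, 0 and 0. The 2 UVB mice had the higher tdTomato+ values. The log2 difference between populations was -4.61 ± 0.87 (adjusted p = 0.00446). It was called with UVB (-7.22, adjusted p = 0.00505) and not without (-2.002, adjusted p = 0.317). The call with UVB was lost without either UVB tdTomato+ library (0.0510 and 0.0587), and the test of the difference between those differences missed the threshold (adjusted p = 0.389).

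Among the inner root sheath keratins, Krt71 (chr15:101733949-101743109), a type II chain, was measured at 139, 153, 69.6 and 74.2 normalized reads in tdTomato+ cells of mice 1 to 4. Its EGFP+ values were 1.66, 5.70, 0 and 0, below every tdTomato+ value. The log2 difference was -5.65 ± 0.72 (adjusted p = 6.03e-04), and it kept its call in every fit without 1 library, over all mice and in each arm. Krt27, a type I partner in the sheath, had 121, 238, 42.2 and 66.8 in tdTomato+ cells and 18.3, 0.95, 0 and 0 in EGFP+ cells. The 18.3 came from mouse 1, where the EGFP+ level was 15.1% of the tdTomato+ level, against 0.40% in mouse 2. Its log2 difference was -5.28 ± 0.90 (adjusted p = 0.00283). Without UVB it was -4.80 (adjusted p = 0.0321, and 0.0558 with mouse as a block). That call was also lost without any 1 of the tdTomato+ libraries or without EGFP+ cells of mouse 2 (0.0810 to 0.161). The call with UVB (-5.76, adjusted p = 0.0168) was lost without EGFP+ cells of mouse 4, either UVB tdTomato+ library or tdTomato+ cells of mouse 1 (0.0656 to 0.126).

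Krt25, a type I chain of the sheath, had 16.6, 0, 23.8 and 79.7 normalized reads in tdTomato+ cells and 0, 0.95, 0 and 0 in EGFP+ cells. A single tdTomato+ library, that of mouse 2, lay within the EGFP+ range. Krt25 had 1 read over the EGFP+ libraries against 129 over the tdTomato+ libraries. The ratio of these pooled reads, each divided by the summed size factors of its libraries, was 145. Its 95% exact interval was 25.6 to 5769, from counting error only. Krt25 and Krt27 share 10.9% and 11.1% of their 50-base stretches with other genes, mostly with each other, so reads between them are uncertain. Krt28 ranged from 23.8 to 133 in tdTomato+ cells against 3 reads over the EGFP+ libraries. The pooled-read ratio was 91.4, with an interval of 30.9 to 446. Krt73 had 0 and 4.28 in tdTomato+ cells without UVB and 18.3 and 32.5 with UVB. Its call between populations over all mice (adjusted p = 0.0227) was lost with edgeR (0.0774) and DESeq2 (0.0892). The call with UVB (0.0159) was lost with both as well (0.0964 and 0.0778), and without UVB it was not called (0.659). Krt26, Krt72 and Krt74 had 2 to 11 reads over the 4 tdTomato+ libraries.

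The labelled hair follicle markers were thus present in part. Krt79, Krt71, Krt27, Krt75 and Krt25, of the upper follicle, companion layer and inner root sheath, were measured in tdTomato+ cells. The hair shaft markers Krt35 and Krt85 were at or near 0. Krt35, an early type I keratin of the shaft cortex, had 4.99 in EGFP+ and 4.89 in tdTomato+ cells of mouse 1 and 0 in every other library. Krt85, its type II counterpart in the matrix, had 1.68 in EGFP+ cells of mouse 3, 1.43 in tdTomato+ cells of mouse 2 and 0 elsewhere. Its position is not given here.

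Of the 15 hair shaft keratins 1, Krt32, had a mean above 100 in tdTomato+ cells. Krt32 (chr11:100080848-100088226), a type I keratin of the hair cuticle, had 448, 375, 104 and 97.4 normalized reads in tdTomato+ cells of mice 1 to 4. EGFP+ cells had 0.83, 0, 1.68 and 0, which is 3 reads against 939. The pooled-read ratio was 352, with a 95% exact interval of 120 to 1708 from counting error. Its log2 difference was -7.10 ± 0.72 (adjusted p = 1.87e-04), and like every fitted difference that rests on 0 to 3 reads it depends on the pseudocount. The call in the UVB arm was lost without tdTomato+ cells of mouse 3 (adjusted p = 0.0559). Its exons overlap 249 bases of Gm11571 on the other strand, and the library kit does not mark strand. The other type I shaft keratins (Krt31, Krt33a, Krt33b, Krt34, Krt35, Krt36, Krt39 and Krt40) had 0 to 13 reads over the tdTomato+ libraries. Among the type II shaft keratins Krt84 had the highest mean, with 4.89, 1.43, 0 and 16.7 in tdTomato+ cells and 0, 1.90, 0 and 0 in EGFP+ cells. Several shaft genes share much sequence, up to 43.3% of 50-base stretches for Krt86, so their few reads could belong to a neighbour.

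Simple keratins did not follow 1 pattern. Krt23, a type I chain, had 56.7, 35.7, 152 and 145 normalized reads in tdTomato+ cells and 0 in every EGFP+ library, at least 152-fold lower against a floor of 3 reads over the group. Krt7, the type II keratin of ducts and glands, had 167, 114, 99.0 and 10.2 in tdTomato+ cells and 0, 4.75, 0 and 0 in EGFP+ cells. Mouse 4 had by far the lowest tdTomato+ value. Its log2 difference was -5.46 ± 0.99 (adjusted p = 0.00377). The call with UVB (adjusted p = 0.0390) was lost with mouse as a block (0.0533) and without any 1 of the 8 libraries (0.0564 to 0.223). Without UVB the call (0.0208) was lost without any 1 of the 4 libraries compared (0.0627 to 0.146).

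Krt18 and Krt8 pair in simple epithelia and Merkel cells. Krt18 had 62.6, 41.4, 52.2 and 88.1 normalized reads in tdTomato+ cells, and 10.8, 12.4, 0 and 0 in EGFP+ cells. Both EGFP+ libraries without UVB held Krt18 and neither UVB library did. The log2 difference was -4.08 ± 0.70 (adjusted p = 0.00283), called with UVB (-6.11, 0.00402) and not without (-2.05, 0.203). The test of the difference between these 2 missed the threshold (0.404). Krt8 had 60.6, 5.71, 22.0 and 25.0 in tdTomato+ cells and 14.97, 1.90, 11.7 and 0 in EGFP+ cells. These ranges overlapped and the difference was not called (adjusted p = 0.208). It shares 26.9% of its 50-base stretches with other genes, mostly Krt8-ps, a pseudogene, so its reads are uncertain. Krt19, a type I keratin of ducts and follicle stem cells, had 9.78, 39.96, 7.33 and 14.8 in tdTomato+ cells and 0.83, 0, 0 and 0 in EGFP+ cells. That is 1 read against 62, a ratio of 69.7 with a 95% exact interval of 12.05 to 2795. Its log2 difference was -3.74 ± 0.74 (adjusted p = 0.00567). Without UVB its call (0.0308) was lost with mouse as a block (0.0612), with edgeR (0.146) and with DESeq2 (0.0732). It was lost there also without either EGFP+ library of mice 1 and 2, without tdTomato+ cells of mouse 2 and, at 0.0501, without tdTomato+ cells of mouse 3, with a range of 0.0501 to 0.154.

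Merkel cell markers gave 45.7, 16.2, 0.84 and 0 when summed over 5 genes in EGFP+ cells of mice 1 to 4, and 58.7, 88.5, 64.1 and 77.9 in tdTomato+ cells. In EGFP+ cells most of that sum was Sox2, at 39.9, 14.3, 0 and 0, which other cell types also express, while Atoh1, which defines Merkel cells, was at 0 in all 4. Of the 5, Cck was lower in EGFP+ cells and the other 4 were not called. The part of Merkel cells in the simple keratin values was not tested.

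Among the others, Krt80 (chr15:101347444-101370162) is a type II chain of differentiating epithelia. It had 421, 334, 343 and 105 normalized reads in tdTomato+ cells and 3.33, 26.6, 5.87 and 105 in EGFP+ cells. In mouse 4 the populations were level, with EGFP+ at 99.8% of tdTomato+, while in mice 1 to 3 EGFP+ was at 0.79% to 7.97%. The log2 difference was -3.96 ± 0.97 (adjusted p = 0.0156). Without UVB the call (0.0331) was lost without any of 6 libraries, all but the 2 UVB EGFP+ libraries (0.101 to 0.271). With UVB Krt80 was not called (-2.82, adjusted p = 0.205). Its exons overlap 263 bases of Gm35853 on the other strand. Krt24, a type I keratin of differentiated keratinocytes, had 231, 157, 116 and 94.6 in tdTomato+ cells and 1 read in EGFP+ cells. Its pooled-read ratio was 646, with a 95% exact interval of 115 to 25562. Krt42 had 49.9, 1.43, 102 and 172 in tdTomato+ cells and 0 reads in EGFP+ cells, at least 130-fold lower over all mice. Without UVB the bound was 22.7-fold. It was not called there by limma (adjusted p = 0.141) but was with edgeR (0.0271) and DESeq2 (0.00485). Its limma call with UVB (0.0119) was lost without either UVB tdTomato+ library, either EGFP+ library of mice 1 and 2 or EGFP+ cells of mouse 4 (0.0523 to 0.106). Krt77, a suprabasal type II keratin, had 340, 196, 37.6 and 0 in tdTomato+ cells and 13.3, 0, 1.68 and 0 in EGFP+ cells, and was not called (adjusted p = 0.0567, and 0.0281 with mouse as a block). Without UVB the block moved it from 0.0589 to 0.0320. Krt9, Krt12, Krt13, Krt76 and Krt222 had 2 to 19 reads over the tdTomato+ libraries.

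Keratins of the epidermis served as a comparison. EGFP+ levels were set beside the same mouse's tdTomato+ levels. Krt14, Krt5 and Krt17, keratins of basal and stressed keratinocytes, were at 0.166% to 0.269%, 0.154% to 0.241% and 0.156% to 0.326% of the tdTomato+ level in the 4 mice. Krt79 was at 0.113%, 0.219%, 0.539% and 0.0952%, a range around theirs. Krt10, of the suprabasal epidermis, was at 1.91%, 0.91%, 25.5% and 51.7% in mice 1 to 4, above those 3 in every mouse. Its EGFP+ values were 236, 167, 172 and 181 normalized reads and its tdTomato+ values 12359, 18394, 673 and 351. The higher percentages in the UVB mice thus came from lower tdTomato+ values. Krt18 was at 17.3% and 29.9% without UVB and 0% with UVB, and Krt8 at 24.7%, 33.3%, 53.4% and 0%. Epidermal keratins thus did not share 1 level, and these percentages are a description with no test. The 6 epidermal keratinocyte markers were all called lower in EGFP+ cells, with a summed level of 658 to 868 there and 239641 to 337836 in tdTomato+ cells, and none was at 0. The part of keratinocytes in the EGFP+ sort was not tested.

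**Figure D3:**
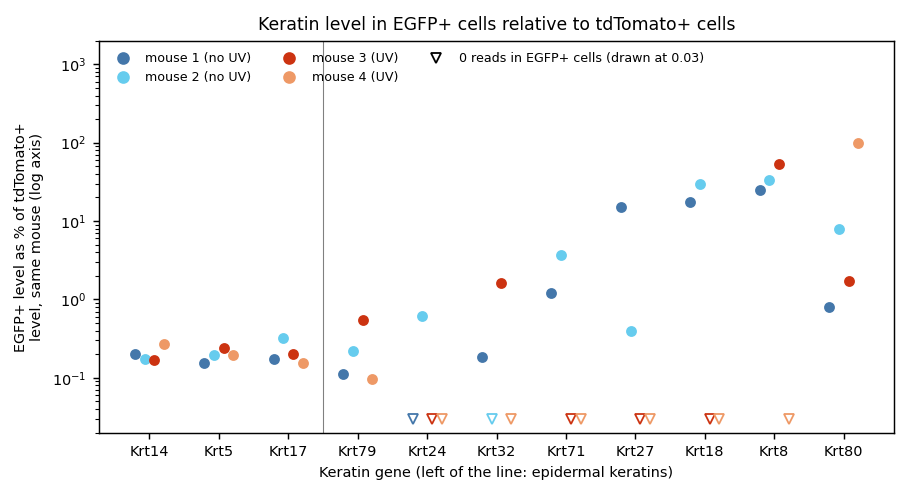
EGFP+ level as a percent of the tdTomato+ level of the same mouse (log axis), 1 point per mouse, for 3 epidermal keratins left of the line and 8 other keratins right of it; open triangles mark 0 reads in EGFP+ cells, drawn at 0.03. Krt14, Krt5, Krt17 and Krt79 lie between 0.0952% and 0.539%, while Krt18, Krt8 and Krt80 spread from 0 to 99.8%.

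UVB was compared with mock treatment within tdTomato+ cells. Of 35 members 1 was called lower, Krt4, and 0 higher (limma). Over all genes tested 0.21% were lower and 0.349% higher. At an unadjusted p under 0.05, 5 members were higher and 4 lower. edgeR called 0 in either direction and DESeq2 called 2 lower, Krt4 and Krt32. The median log2 change was -0.73 over the members and -0.09 over all genes tested. Krt4 (chr15:101918535-101924735), a type II keratin of oral and oesophageal lining, had 49.9 and 68.5 normalized reads in tdTomato+ cells without UVB and 0 and 0 with UVB. It was at least 41.6-fold lower against a floor of 3 reads over the group. The fitted log2 change was -5.89 ± 0.83 (adjusted p = 0.0309). EGFP+ cells had 0.83 in mouse 1 and 0 in the other mice, and the call of Krt4 between populations over all mice (adjusted p = 0.00845) was lost with DESeq2 (0.150) and with edgeR.

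The call of Krt4 was lost with edgeR (adjusted p = 0.132), with a pseudocount of 0.1 (0.0949) and with only the libraries compared (0.0611), a fit that called Krt79 instead. It was also lost without any 1 of 5 libraries, both UVB tdTomato+ libraries, both EGFP+ libraries of mice 1 and 2 and EGFP+ cells of mouse 4 (0.0754 to 0.171). Of the 10 epidermal keratins, 2 were called lower and 1 higher in the same cells. Krt10 and Krt1, which mark suprabasal epidermis, fell from 12359 and 18394 to 673 and 351, and from 5874 and 10598 to 54.1 and 16.7 (adjusted p = 0.0101 and 0.0133). Krt6a, a keratin of stressed keratinocytes, rose from 1488 and 3043 to 39195 and 22214 (0.0292). Of 6 sebocyte markers 1 was called, which was lower. This gene, Mc5r, a sebaceous gland receptor, fell from 33.3 and 25.7 to 0 and 0 (0.0354). Melanocyte markers rose in tdTomato+ cells with UVB, 5 of 7 called, with a summed level of 5437 and 2338 without UVB and 22980 and 44159 with UVB. Which cells carried Krt4, and the part of cell composition in its fall, were not tested.

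**Figure D4:**
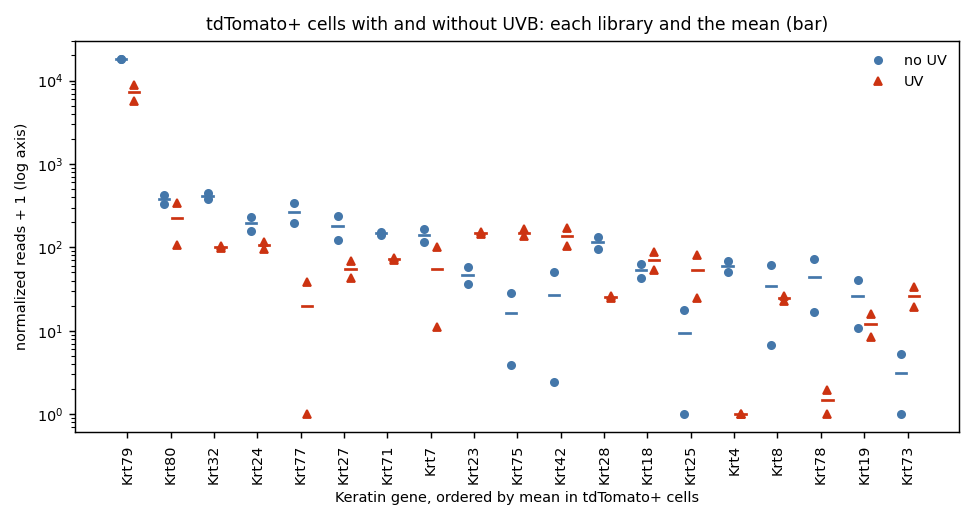
Normalized reads plus 1 (log axis) in tdTomato+ cells for the 19 keratins with a mean above 10, ordered by that mean; points are libraries without UVB (circles) and with UVB (triangles), bars are group means. Krt4 falls from 49.9 and 68.5 to 0 and 0, and Krt75, Krt42 and Krt25 each have 1 low and 1 higher library without UVB.

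No other member was called with UVB in tdTomato+ cells by limma. Krt79 had a log2 change of -1.37 ± 0.80 (adjusted p = 0.527, and 0.0496 with only the 4 libraries compared). For Krt32 the change was -2.02 ± 1.02 (0.450, and 0.0242 with DESeq2), and for Krt71 -1.01 ± 1.01 (0.703). Krt27 changed by -1.66 ± 1.28 (0.598). Larger falls were found for Krt78, at -4.64 ± 1.08 (0.120), Krt77, at -5.38 ± 1.91 (0.279), and Krt12, at -3.09 ± 0.96 (0.217). Krt78 had 15.6 and 71.4 normalized reads without UVB and 0 and 0.93 with UVB. The opposite sign was found for Krt75, at 3.84 ± 1.22 (0.230), Krt25, at 3.41 ± 1.41 (0.345), Krt42, at 3.58 ± 1.44 (0.333), and Krt73, at 3.47 ± 1.02 (0.196). Krt36 also rose, by 2.49 ± 0.78 (0.224). In Krt75, Krt25 and Krt42 the libraries without UVB disagreed. Mouse 2 had 2.85, 0 and 1.43 normalized reads and mouse 1 had 27.4, 16.6 and 49.9. Without tdTomato+ cells of mouse 1, UVB calls were 3 higher, Krt75 (adjusted p = 0.0177), Krt25 (0.0413) and Krt42 (0.00517), and 3 lower, Krt4 (0.00217), Krt78 (0.0385) and Krt9 (1.49e-04, on 3 reads in 1 library). That fit leaves 1 mock library, assumed to vary like the other groups. The remaining mock library, that of mouse 2, detected the most genes of the 8.

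In EGFP+ cells 0 of 35 members were called with UVB in either direction (limma; edgeR also 0). Over all genes 0% were called higher and 0.0166% lower. At an unadjusted p under 0.05, 1 was lower, Krt18, with a log2 change of -3.65 ± 0.99 (adjusted p = 0.282). DESeq2 called it (0.0336). The number of members at 0 reads was 15 in EGFP+ cells without UVB and 31 with UVB, and the UVB library with the fewest detected genes, that of mouse 4, had 40. Over all genes, 14922 and 15867 were detected in the EGFP+ libraries without UVB and 14503 and 11186 in those with UVB. All genes at 0 reads in each group were not counted, so the member counts have no like background and are not read as a UVB effect. The median log2 change was -0.44 over the members and -0.11 over all genes tested. Krt79 changed by -0.76 ± 0.80 (adjusted p = 0.792), by -2.22 (0.0202) without EGFP+ cells of mouse 3 and by 0.71 (0.784) without those of mouse 4. The UVB changes in the 2 populations differed for 0 members by limma, edgeR and DESeq2, where 0% of all genes were called higher and 0.00553% lower. At an unadjusted p under 0.05, 2 were higher and 3 lower. Without tdTomato+ cells of mouse 1, 2 were called higher, Krt4 (0.00770) and Krt9 (0.00255), and 2 lower, Krt42 (0.0135) and Krt75 (0.0216).

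Other genes of the hair programme were read from lists, beside a background of 19.2% lower and 9.66% higher over all genes. Of 20 hair follicle transcription factors, 16 (80%) were lower in EGFP+ cells and 0 higher, among them Vdr (log2 difference -8.17), the vitamin D receptor, and Gata3 (-8.38), a regulator of the inner root sheath. Of 11 hair structure genes 6 of 10 tested (60%) were lower, including Tchh (-5.72), the trichohyalin that hardens the inner root sheath, and Lipm (-6.98). Of 50 keratin-associated protein genes, which build the matrix of the hair shaft, 13 were tested and 2 were lower (15.4%, below that background), Krtap17-1 and Krtap11-1. Both had 0 reads in EGFP+ cells. Of 13 other intermediate filament genes, 12 were tested, 3 were higher in EGFP+ cells (Vim, Lmna and Synm) and 1 lower, the muscle filament gene Des. Vim, the vimentin gene, had 38650, 44560, 42174 and 47654 normalized reads in EGFP+ cells and 2608, 1534, 4290 and 4565 in tdTomato+ cells, a log2 difference of 3.86 ± 0.17 (adjusted p = 1.92e-06). With UVB 0 genes of these 4 lists were called by limma in tdTomato+ or EGFP+ cells. At an unadjusted p under 0.05 in tdTomato+ cells, 4 hair structure genes, 2 transcription factors and 2 keratin-associated protein genes were lower, and 1 transcription factor and 1 filament gene higher. In EGFP+ cells 5 transcription factors and 2 filament genes were lower. In tdTomato+ cells Vim was called higher by edgeR and DESeq2 and Sox21 lower by DESeq2. In EGFP+ cells edgeR called Prdm1 lower, and DESeq2 called Prdm1, Msx2 and Vdr lower. These names were chosen after their values were seen.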

How the data were processed

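The data are 1 table of 24421 genes by 8 libraries from sorted mouse skin cells, made with a poly(A) selecting, unstranded kit, per the labels' protocols. The submitters' processing notes name mm10, TopHat2 2.0.12 with FastQC, Cufflinks 2.2.1, and also DESeq2 1.14.1. How reads were counted for each gene is not given in the sources used here. As the file headers show, the authors deposited signal values that are normalized reads. Whole reads scaled by a library-wide size factor (0.701 to 1.20) account for 195368 of 195368 values within 0.01 of a whole read (100%), and the reads so recovered were used for count tests. The authors also deposited log2 fold changes, a score and p-values for EGFP+ against tdTomato+ cells, used only where named.

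limma 3.58.1 (R 4.3.3) was run on log2(value + 1) with a mean per group, all 8 libraries in 1 fit, a variance trend and 4 residual degrees of freedom. Tests covered the 18070 genes whose mean reached 1 in any group, with Benjamini-Hochberg adjustment and a threshold of 0.05. Fold changes are on that log2 scale, with the moderated standard error. The p-values rest on 2 mice per group. The plan named edgeR for raw counts, so limma was used for the normalized values, and edgeR 4.0.16 and DESeq2 1.42.0 on recovered reads were alternatives. Scaling was varied by quantile normalization and by leaving the 20 most abundant genes out of the scale. The pseudocount was set to 0.1, the filter was dropped or tightened to a value of 5 in 2 libraries, and mouse was added as a block. Fits were repeated on the compared libraries alone and without each library. EGFP+ and tdTomato+ libraries of a mouse are paired by the labels. Their deviations from the group means correlated at 0.0873 (mice 1 and 2) and 0.0562 (mice 3 and 4) across genes.

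The members and lists were chosen with earlier results of these data known. Named with every value were the 7 follicle markers, Krt7, Krt8, Krt18, Krt19, members called with UVB, and the member with the highest mean in each role. Others named were chosen after their values were seen. From the other lists at most 4 genes each, with the smallest p, were eligible. A member at 0 reads was bounded from 3 reads over the group, and one with 1 to 3 reads has a 95% exact interval. Both cover counting error only. These ratios and bounds compare pooled reads divided by the summed size factors of each side. Transcript lengths and positions are from GENCODE M21, which matched 41 of 42 members.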

Additional observations from a re-analysis of the deposited data

Results flagged for a closer look

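Of 22 sets of 4 libraries of 1 sorted population examined for the named keratins, 4 had 1 library far from the other 3 by Dixon's ratio. The cut-off gives such a gap by chance in about 1 in 20 sets of normally distributed values. Where 3 libraries are at 0, any reads in the remaining library give the largest possible ratio. That rate therefore does not apply to the sets of Krt35 and Krt7, and the set of Krt27 comes close to the same case. Krt27 was at 18.3 normalized reads in EGFP+ cells of mouse 1 and at 0 to 0.95 in the other EGFP+ libraries. Krt7 was at 4.754 in EGFP+ cells of mouse 2 and at 0 in the others. Krt35 was at 4.99 in EGFP+ and 4.891 in tdTomato+ cells of mouse 1 and at 0 in the other 3 libraries of each population. Both sets of Krt35 are thus 1 mouse, the one that differed in sex from the others, and sex, mouse and chance were not told apart.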

How the results depend on the processing

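Among the keratins chosen to be named with every value, no called result changed direction under any alternative run. Of the named keratin results, 18 that were not called changed sign, and none was called where it did. For the UVB change in EGFP+ cells, Krt79 was 0.61 with quantile normalization. For that in tdTomato+ cells, Krt8 was -0.50 with DESeq2 and -0.51 with edgeR, and Krt84 -1.09 with a pseudocount of 0.1. For the difference between UVB changes, DESeq2, edgeR and a pseudocount of 0.1 gave -0.16, -1.06 and -0.69 for Krt19 and -2.37, -3.01 and -0.69 for Krt7. DESeq2 gave 0.025 for Krt35 and edgeR 0.0024 for Krt8. Leaving out 1 library, log2 differences between populations ran from -0.64 to 0.65 for Krt35 over all mice, and without UVB from -1.28 to 1.30 for Krt35, -3.66 to 0.48 for Krt25 and -3.18 to 0.021 for Krt8. UVB changes in EGFP+ cells ran from -0.44 to 0.98 for Krt32, -2.22 to 0.71 for Krt79, -2.77 to 0.90 for Krt8 and -0.67 to 3.27 for Krt80. In tdTomato+ cells they ran from -1.84 to 0.091 for Krt19, -1.33 to 1.87 for Krt8 and -1.92 to 2.23 for Krt84. The difference between UVB changes ran from -0.53 to 1.40 for Krt19, -2.61 to 0.70 for Krt27, -1.30 to 1.28 for Krt35, -0.78 to 2.37 for Krt7, -0.85 to 2.08 for Krt79, -3.03 to 0.64 for Krt8 and -2.99 to 1.15 for Krt84. Without UVB, the count of members lower in EGFP+ cells went from 12 to 7 with a pseudocount of 0.1. With UVB in tdTomato+ cells the count lower went from 1 to 2 with DESeq2, to 0 with edgeR and to 0 with a pseudocount of 0.1. In EGFP+ cells it went from 0 to 1 with DESeq2. Leaving out 1 library at a time, members lower in EGFP+ cells numbered 13 to 19 over all mice, 7 to 12 without UVB and 6 to 13 with UVB. The 7 without UVB came without EGFP+ cells of mouse 2. The low counts with UVB were 7 without EGFP+ cells of mouse 4, 6 without tdTomato+ cells of mouse 3 and 7 without those of mouse 4. With UVB in tdTomato+ cells, leaving out 1 library gave 0 to 3 members higher and 0 to 3 lower. In EGFP+ cells it gave 0 to 1 lower, and for the difference between UVB changes 0 to 2 higher and 0 to 2 lower. The cause of these moves was not tested. With mouse as a block (the replicate block) 17 members were lower over all mice, 11 without UVB, 12 with UVB and 0 for the difference between UVB changes. Calls that the block moved are given beside them in the report. Among the keratins chosen to be named with every value, 7 calls were lost with a pseudocount of 0.1, 4 with edgeR, 3 each with quantile normalization, the compared libraries alone and the block, 2 with DESeq2 and 1 with no filter. Over all genes the median log2 difference moved from -0.33 to 0.02 with quantile normalization, a shift of 0.35, and to -0.10 with rescaling, a shift of 0.23. The members' median was -1.50 and -2.06 there, and 0 of 16 called members changed direction. The low reads in EGFP+ cells limit what can be said of shaft and other rare keratins.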
